A study of Bos taurus with 88 samples.

Results

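The genes described here are the 100 whose level in whole blood differed most lastingly between dairy and beef calves during the first week of life. They were chosen from 10002 genes with a mean of at least 5 CPM (gene counts scaled to library size), out of 24616 genes counted. For each gene the difference D(t), the mean of the dairy calves minus the mean of the beef calves on the scale log2(CPM + 1), was taken at 0, 48, 72 and 168 h after birth. Of the 10002 genes, 7237 had a difference of the same sign at all 4 ages (1529 higher and 5708 lower in dairy calves), and the 100 with the largest value of the smallest of the 4 differences became the members. The members were therefore selected on the comparison of dairy with beef calves, and every dairy and beef value below is a description of that choice and carries no test. 69 members were higher in dairy calves and 31 were lower. The split of signs over the 7237 genes was obtained with this scaling of library size only. With TMM scaling in edgeR, the median log2 fold change over all genes tested (dairy against beef) was -0.009, -0.025, 0.039 and -0.028 at the 4 ages. TMM sets its factors so that most genes centre near 0, so these medians follow from the scaling and cannot decide the question. The split depends on the scaling and does not show that most genes were lower in dairy calves. Of the members, 76 were chosen again with TMM library sizes.

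The study followed how calves reared under different feeding become immunocompetent, and sampled 22 calves at each of the 4 ages as 88 libraries. The dairy group (H) was 8 Holstein calves that were removed from the dam and kept on a dairy farm in Northern Ireland. They were fed their own dam's colostrum in amounts set by body weight, first by tube and then by teat. At the first feed all H calves were given the same percentage of their body weight, so feeding level did not vary within the group by design. After the first 4 days of life they were moved from single to group pens and given milk replacer and concentrate. Their samples at the last age were therefore taken under another diet and housing than those at the earlier ages. The beef calves were kept on another farm in Ireland and suckled their dams freely. They were 7 calves of Charolais × Limousin cows (CL) and 7 calves of Limousin × Friesian cows (LF), both sired by Aberdeen Angus or Charolais bulls, so that a breed name refers to the cow, and the samples at 0 h were taken before any feed. Breed, farm and feeding changed together between the H and the beef calves and cannot be told apart.

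A newborn calf receives almost no antibody across the placenta and depends on colostrum for its first immunoglobulins, while the number and kinds of its circulating white cells change over the first days. RNA from whole blood pools neutrophils, lymphocytes, monocytes and platelets with young red cells that still carry transcripts. In such a mixture fewer cells of a type and less RNA per cell cannot be told apart. The files name genes by Ensembl identifier and do not pair them with symbols, so no member could be given a function or placed in a pathway, and markers of cell types could not be read. At most 2 identifiers on each side are printed for any set of members, and the others are given by their counts and ranges.

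Between 10023822 and 39304404 reads were counted on genes per library (median 22595526.5). The 5 largest genes of a library took 2.88% to 48.4% of these counts (median 4.95%), with the highest share in H calf 6 at 72 h, and for that reason CPM was computed on the remaining counts. A count of 3, used as the floor of detection, corresponded to 0.0827 to 0.367 CPM. The 280 pairs of libraries within a group differed by far more than sampling noise (smallest chi-square per degree of freedom 33.95).

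5 of the beef libraries went against the calf named in their label. 13 genes were found, without use of the labels, that were under 0.5 CPM in at least 8 libraries, over 4 CPM in at least 8 and between these levels in no more than 8. Each library was read as on or off at each of these genes around 1 CPM. The library labelled CL calf 1 at 168 h had the state of its own calf's other libraries at 6 to 7 of the 13 genes and that of LF calf 5 at 13. The library labelled LF calf 5 at 72 h had the state of its own calf at 7 and that of CL calf 1 at 12 to 13. The libraries labelled CL calf 2 and CL calf 3 at 168 h each had the state of their own calf at 10 genes and that of the other one's calf at 13. The library labelled LF calf 6 at 168 h had the state of its own calf at 9 and that of CL calf 6 at 13. Among the remaining 83 libraries, the 117 pairs of libraries of 1 calf shared their state at 12 or 13 genes. None of the 32 H libraries was among the 5, and 5 of the 13 genes are members. A library was flagged only if it differed from its own calf at 3 or more genes. H calves 3 and 6 had the same state at all 13 genes, and some other calves shared theirs at 12. An exchange between such calves could not be seen, so the check does not show that the other labels hold. The rule for this check was set after the data had been seen. How constant on/off members are within calves, once the 5 libraries are set aside, is in part fixed by this check. The labels were kept as given. Most differences D(t), set differences and counts of calls at 72 and 168 h that rest on these libraries are given with and without them. Group levels are given with all libraries. Of the members, 84 were chosen again when the 5 libraries were left out.

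**Figure D1:**
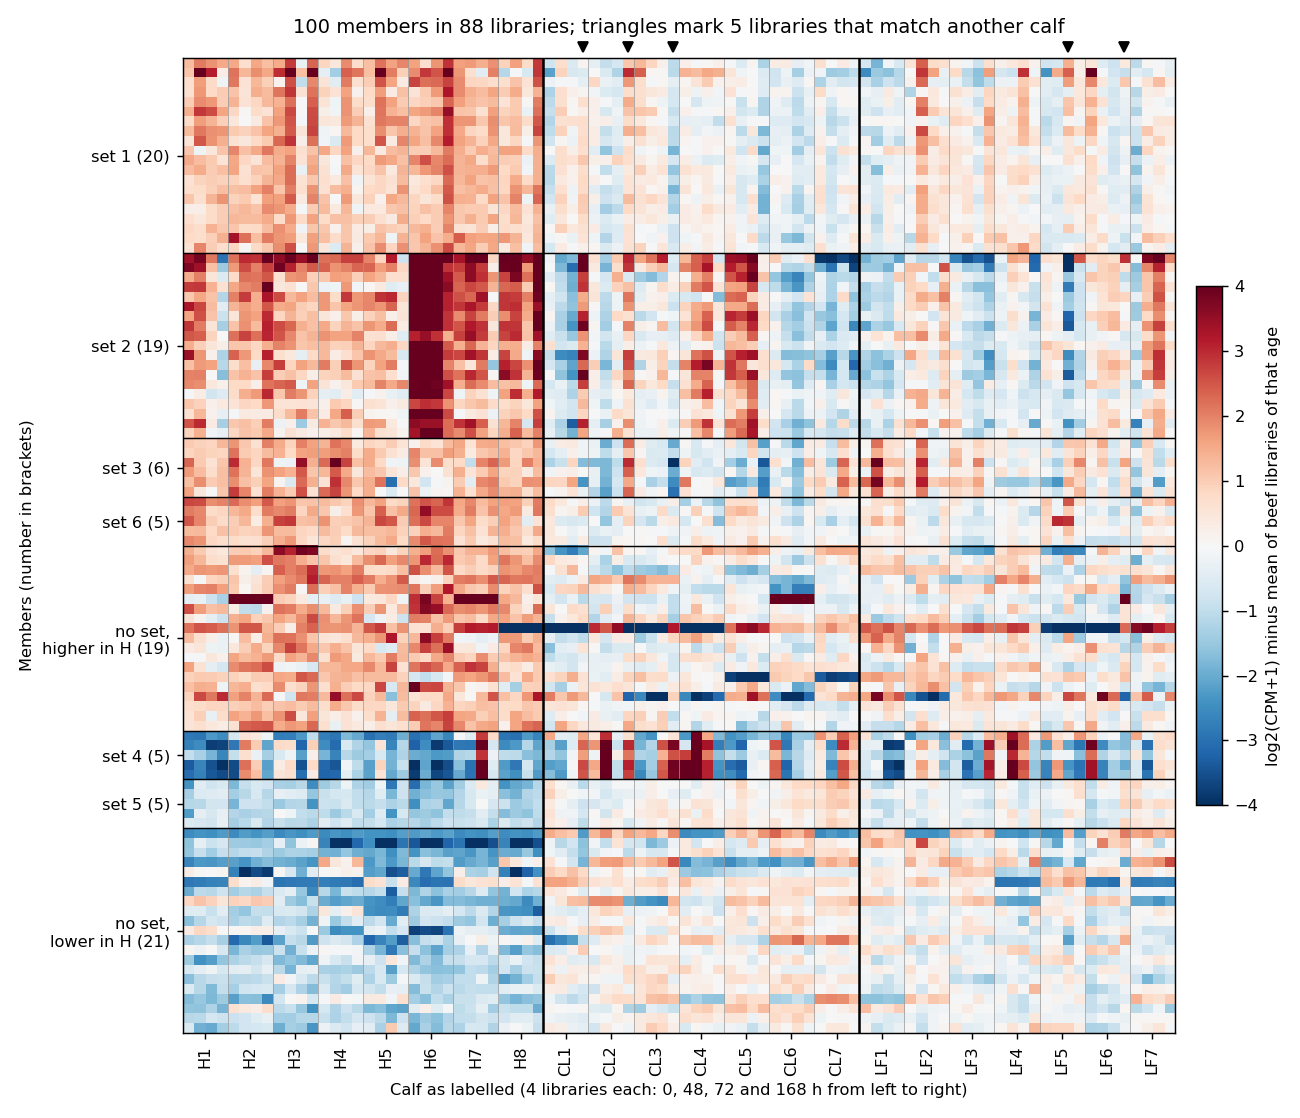
Each row is 1 of the 100 members and each column 1 of the 88 libraries, grouped by labelled calf (4 libraries each, from 0 to 168 h). Colour gives log2(CPM+1) minus the mean of the beef libraries of the same age, red for higher and blue for lower, cut off at 4 on either side, and triangles mark the 5 libraries that matched another calf. The H calves on the left are mostly red over the 69 upper rows and mostly blue over the 31 lower rows. Exceptions are rows in which only some calves differ, and libraries in which a set of members goes the other way. Examples are H calf 7 at 72 h in set 4 (mean 7.42, against 4.24 in CL and 3.09 in LF calves) and H calf 1 at 168 h in set 2 (3.16, against 4.13 and 3.64).

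The smallest of the 4 differences ran from 0.83 to 2.59 on the log2 scale among the members higher in H calves (median 0.98) and from 0.82 to 2.23 in size among those lower (median 0.99). The median over all 7237 genes of one sign was 0.18. At the end of the list the members ranked 98, 99 and 100 had values of 0.826, 0.824 and 0.823, and the next 3 genes, which were left out, had 0.822, 0.821 and 0.819. The threshold therefore lay in a dense part of the ranking. The size of the difference varied between ages by a median factor of 1.53 from the smallest to the largest age, and it was smallest at 72 h in 42 members, at 168 h in 27, at 0 h in 21 and at 48 h in 10. Members higher in H calves had a median of their mean levels of 48.1 CPM (range 5.35 to 25873), those lower in H calves a median of 14.2 CPM (range 5.09 to 126.3), and all 10002 genes a median of 37.4 CPM.

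**Figure D2:**
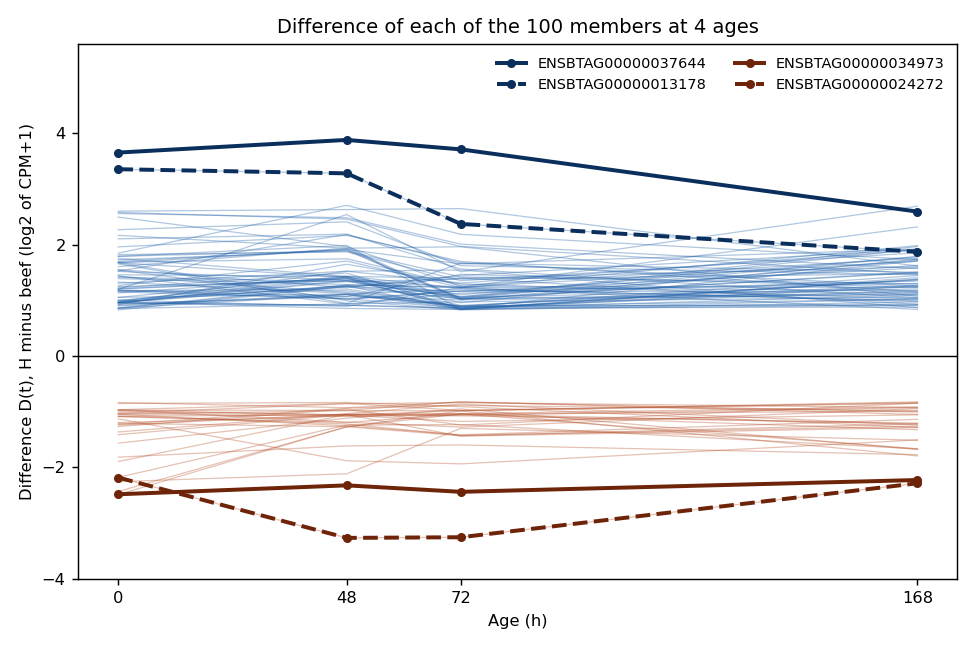
The difference D(t) between H and beef calves, on the scale log2(CPM+1), is plotted against age in hours for each of the 100 members, blue for the 69 higher and brown for the 31 lower in H calves. Thick lines mark the 2 members on each side with the largest smallest difference, and ENSBTAG00000037644 falls from 3.71 at 72 h to 2.59 at 168 h.

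The differences were those of most, but not of all, calves. When each calf was given its mean over the 4 ages, all 8 H calves lay beyond the median of the 14 beef calves, on the side of the member's difference, in 75 members, 7 of the 8 did so in 15, and 6 or fewer in 10 (at the least 5). The calf means of H and beef calves did not overlap in 24 members, 18 of them higher and 6 lower in H calves, beside 9.61% of the 10002 genes. Without the 5 libraries the numbers were 18 members and 5.56% of the genes. No member and 0% of the 10002 genes were free of overlap between H and beef calves at each of the 4 ages. In 97 members the H mean lay on the same side of both the CL and the LF mean at every age. The other 3 were all higher in H than in CL calves throughout, and the H mean was level with or below the LF mean at 1 age, by at most 0.08 on the log2 scale.

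ENSBTAG00000019106 was the member that came closest to a full separation of the groups, and the only one without overlap at all 4 ages once the 5 libraries were left out. It was named after its values had been seen. The number of all genes without overlap at that setting is not given here. In H calves its level was 205.5 ± 28.2 CPM (SD, n = 8) at 0 h, 164.1 ± 20.8 CPM at 48 h, 151.4 ± 31.3 CPM at 72 h and 234.5 ± 72 CPM at 168 h. The beef calves had 92.5 ± 19.8 CPM (SD, n = 14), 72.4 ± 9.76, 82.9 ± 30.8 and 88.3 ± 14.2 at the same ages. The H calves were above every beef calf at 0, 48 and 168 h, with a lowest H value of 149.2 CPM and a highest beef value of 114.2 CPM at 168 h. At 72 h the H calves ran from 118.5 to 201.5 CPM, and of the beef libraries only that labelled LF calf 5, at 182.5 CPM, reached into this range, the next being 101.9 CPM.

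The member with the largest lasting difference was ENSBTAG00000037644, which was also the most abundant of the members. The lowest, median and highest H values were 8065, 21019 and 350403 CPM at 0 h, 4155, 34006 and 425631 CPM at 48 h, 12284, 28602 and 458217 CPM at 72 h, and 39.5, 3845 and 43642 CPM at 168 h. For the beef calves they were 139.7, 2609 and 22085 CPM at 0 h, 84.1, 2392 and 30485 CPM at 48 h, 24.3, 3511 and 77587 CPM at 72 h, and 3.98, 294.6 and 13375 CPM at 168 h. The groups overlapped at every age, and the differences D(t) were 3.65, 3.88, 3.71 and 2.59. H calf 6 stood far above the other calves at the first 3 ages and not at 168 h, where it had 9913 CPM, and the gene took 23.6% of all gene counts of that calf at 72 h, against medians of 2.63% in H, 0.542% in CL and 0.122% in LF calves at that age. At 168 h the highest beef value belonged to the library labelled CL calf 1, and without the 5 libraries D(t) was 3.19 at 72 h and 3.68 at 168 h.

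ENSBTAG00000013178 ranked next among the members higher in H calves and followed the same calves. The lowest, median and highest H values were 1321, 4034 and 28224 CPM at 0 h, 2371, 6948 and 40229 CPM at 48 h, 3069, 5404 and 51254 CPM at 72 h, and 92.9, 1340 and 7993 CPM at 168 h. The beef values were 106.2, 376.7 and 3570 CPM at 0 h, 95.2, 980.9 and 4223 CPM at 48 h, 44.7, 1426 and 16931 CPM at 72 h, and 19.1, 262.1 and 6204 CPM at 168 h. H calf 6 was again the highest at 0, 48 and 72 h. D(t) was 3.35, 3.28, 2.37 and 1.87, and without the 5 libraries it was 1.99 at 72 h and 2.6 at 168 h.

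Of the members lower in H calves, ENSBTAG00000034973 ranked first with all libraries, at -2.48, -2.32, -2.44 and -2.23 at the 4 ages. It was at or under the floor in every H library, with at most 2 counts in any of the 32. Among the beef calves it was either clearly present or at the floor. Without the 5 libraries, 9 of the 14 beef calves (CL calves 1, 2, 3, 5 and 6 and LF calves 1, 3, 6 and 7) had at least 6.86 CPM at every age, and the highest value of any of the other 5 beef calves and of the H calves was 0.234 CPM. The labelled libraries that broke this pattern were CL calf 1 at 168 h, with 0 CPM, and LF calf 5 at 72 h, with 12.1 CPM. Since the 5 libraries were found by on/off genes, the pattern without them is in part fixed by that choice. The gene was thus not detectable at this depth in any H calf or in 5 of the 14 beef calves, and without the 5 libraries D(t) was -2.34 at 72 h and -1.90 at 168 h. Its smallest difference was then smaller in size than the -2.18 of ENSBTAG00000024272, and with a pseudocount of 5 they had -1.11 and -1.85, so the order of these members depended on both choices.

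ENSBTAG00000024272 was lower in H calves by 2.18, 3.27, 3.25 and 2.28 on the log2 scale, and it split the H calves. Without the 5 libraries its D(t) was -3.255 at 72 h and -2.424 at 168 h. At 48 h H calves 1, 2 and 3 had 106.2, 49.7 and 44.1 CPM, while H calves 4 to 8 had 7.82, 5.24, 3.49, 2.88 and 6.54 CPM. The same 5 calves stayed at 2.25 to 17.0 CPM at 72 and 168 h, and the same 3 at 44.9 to 137.3 CPM. The beef calves had a lowest, median and highest value of 26.4, 60.4 and 127.9 CPM at 0 h, 32, 130.1 and 886.1 CPM at 48 h, 47.1, 135.1 and 269.8 CPM at 72 h, and 42.8, 134.3 and 296 CPM at 168 h. H calves 1 to 3 lay within the range of the beef calves at 48 and 168 h and H calf 2 just below it at 72 h, while the other 5 lay below it at all 4 ages.

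Genes that were on in some calves and off in others made up a distinct share of the members. A library under the floor of 3 counts and another over 5 CPM within the same breed group were found in 16 members, 7 higher and 9 lower in H calves, beside 0.610% of the 10002 genes. In 10 of the 16, over 80% of the spread within groups of breed and age lay between calves, that is, in the calf means over the 4 ages. In 3 of the 16, all in a set of members described below, it was under 35%, where a calf's level changed widely from age to age. The members with the highest share on either side, named after their values had been seen, are plotted by calf.

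**Figure D3:**
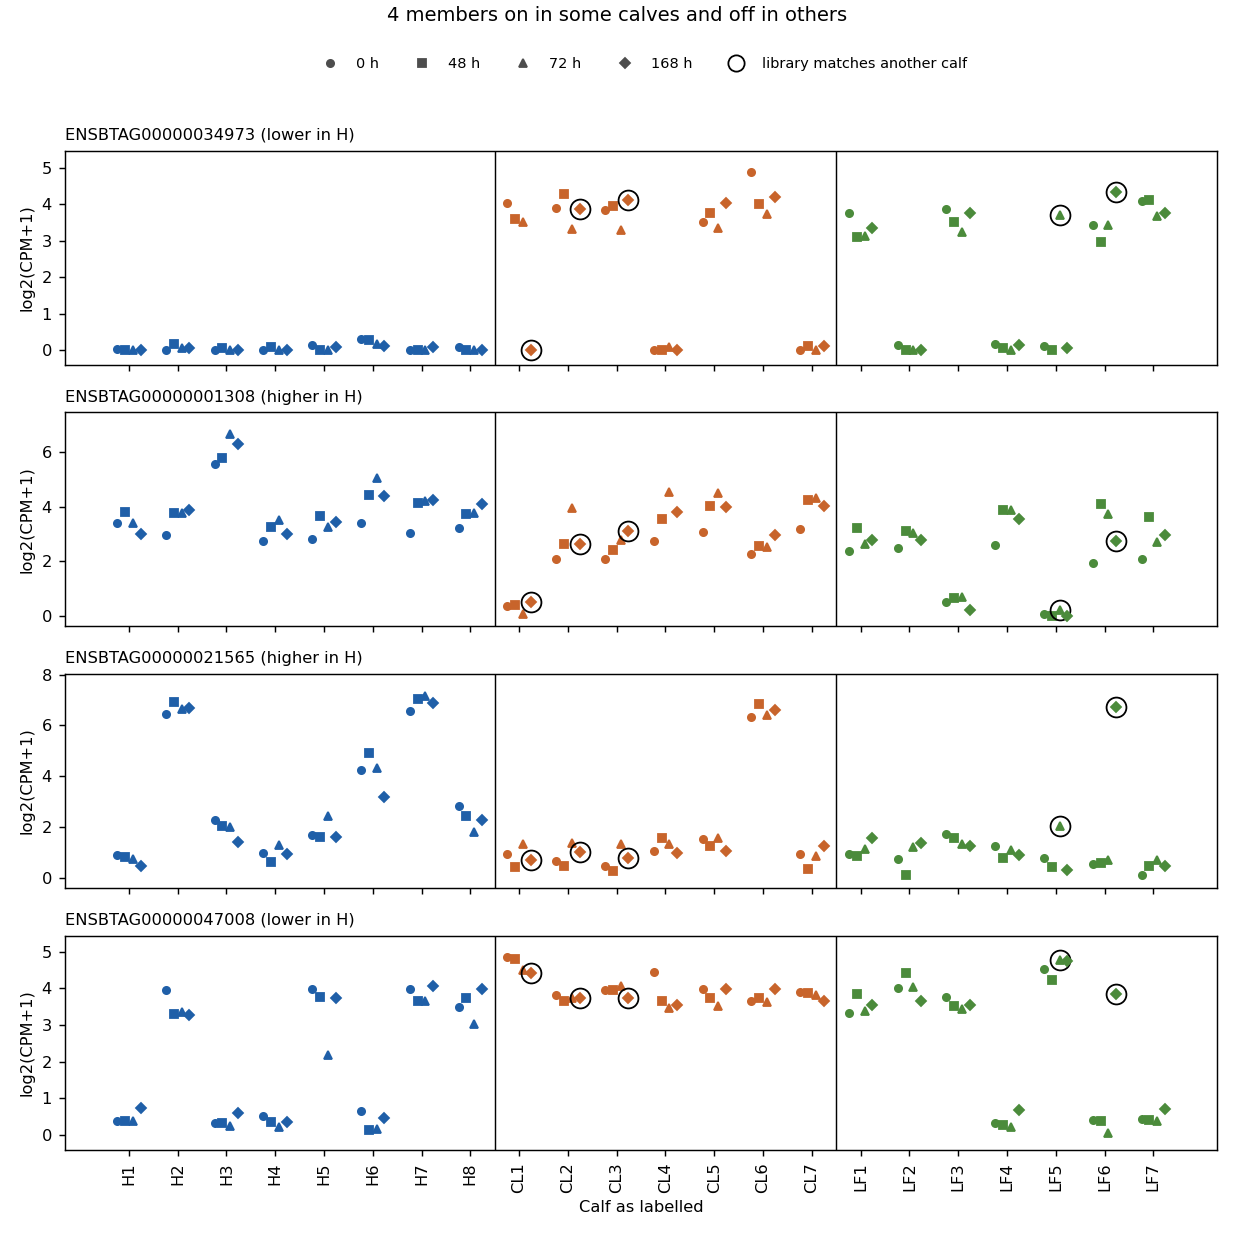
Each panel gives log2(CPM+1) of 1 member by labelled calf, with a symbol for each age, H calves in blue, CL calves in orange and LF calves in green, and rings around the 5 libraries that matched another calf. For ENSBTAG00000034973, ENSBTAG00000001308 and ENSBTAG00000047008 a calf that was off at one age was off at all 4, apart from ringed libraries, and for ENSBTAG00000021565 the ringed library of LF calf 6 at 168 h is at 104.1 CPM while the other libraries of that label are under 1 CPM. The ringed libraries were found by 13 on/off genes, 5 of them members, so constancy outside the rings is in part fixed by that choice.

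ENSBTAG00000001308, higher in H calves, ran from 5.61 to 100.9 CPM over the 32 H libraries. It was under 1 CPM at every age in 3 beef calves, CL calf 1 and LF calves 3 and 5, and at 2.78 CPM or more in the other 11 without the 5 libraries. H calf 3 was the highest at every age, with 46.3, 55.1, 100.9 and 77.7 CPM. The 7 other H calves reached from 5.61 to 9.67 CPM at 0 h, where 4 of the beef calves were also over 5 CPM. Its D(t) was 1.41, 1.33, 1.38 and 1.48, and 1.18 at 72 h and 1.35 at 168 h without the 5 libraries.

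ENSBTAG00000021565 was highest in 2 of the 8 H calves, and intermediate in another. H calf 2 had 87.1, 120.8, 99.2 and 100.8 CPM at the 4 ages and H calf 7 had 93.5, 129.2, 142.1 and 118.2 CPM. H calf 6 had 17.9, 29.3, 19.0 and 7.99 CPM, and the other 5 H calves stayed at 0.397 to 6.06 CPM. A single beef calf was as high, CL calf 6, with 79.6, 113.4, 84.0 and 96.1 CPM, and the remaining beef calves did not exceed 3.12 CPM except in the library labelled LF calf 6 at 168 h, with 104.1 CPM. D(t) was 1.96, 2.16, 1.70 and 1.15, and the last of these was 1.36 without the 5 libraries.

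ENSBTAG00000047008, lower in H calves, was on in all 7 CL calves, in 4 of 7 LF calves and in 4 of 8 H calves. CL calves had 9.97 to 27.8 CPM over all ages. H calves 2, 5, 7 and 8 had 3.51 to 15.6 CPM, and H calves 1, 3, 4 and 6 had 0.106 to 0.662 CPM. The LF calves that were off, calves 4, 6 and 7, had 0.043 to 0.647 CPM outside the library labelled LF calf 6 at 168 h, with 13.4 CPM. Its D(t) was -1.08, -1.22, -1.43 and -1.26 (-1.29 at 72 h and -1.05 at 168 h without the 5 libraries), between groups in which 4 of 8 H and 11 of 14 beef calves were on.

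Calves kept their level across ages in the members more than in genes at large. Of the spread of log2(CPM+1) within groups of breed and age, a median of 56.4% lay between calves in the members (range 16.9% to 95.7%) and 41.8% in all 10002 genes, where 25% would arise if a calf's values at the 4 ages had no relation to one another. The share was over 80% in 18 members and in 0.92% of all genes. Without the 5 libraries the medians were 62.8% and 43.5%. A lasting offset of single calves enters D(t) at every age, so the share is not independent of the choice of members.

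Members that rose and fell together from calf to calf, once the mean of each breed and age had been taken away, formed 6 sets of at least 5 genes holding 60 of the 100 members. The sets were cut at an average correlation of 0.5 (Pearson, over 88 libraries, 4 of each calf), and each set lay wholly on one side: 20, 19, 6 and 5 members higher in H calves in sets 1, 2, 3 and 6, and 5 members lower in each of sets 4 and 5. The median correlation within a set ran from 0.585 to 0.918. Over all pairs of members it was 0.05, beside 0.07 over all pairs of the 10002 genes, and 8.59% of the pairs of members and 10.6% of all pairs were over 0.5. Without the 5 libraries, 7 sets were found. Sets 2 to 6 had the same members, and a set of 14 genes shared 13 with set 1. The members of the further set are not given here.

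Set 1 held 20 members higher in H calves, with mean levels of 6.89 to 5475 CPM. Its mean level on the log2 scale in H calves was 7.69 ± 0.36 (SD, n = 8) at birth and 6.64 ± 0.66, 6.32 ± 0.50 and 6.38 ± 0.63 at the 3 later ages. It was 6.67 ± 0.46 (SD, n = 7), 5.19 ± 0.48, 5.16 ± 0.41 and 4.68 ± 0.74 in CL calves and 6.52 ± 0.63 (SD, n = 7), 5.49 ± 0.72, 5.46 ± 0.55 and 4.97 ± 0.40 in LF calves. All 3 groups were highest at birth, and the mean of the differences was 1.09, 1.3, 1 and 1.55 at the 4 ages (1.05 at 72 h and 1.57 at 168 h without the 5 libraries).

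Set 2 held 19 members higher in H calves, among them ENSBTAG00000037644 and ENSBTAG00000013178. Its mean level was 6.08 ± 1.17 (SD, n = 8), 6.72 ± 1.31, 6.91 ± 1.31 and 5.29 ± 1.46 in H calves at the 4 ages, 4.25 ± 0.91 (SD, n = 7), 4.36 ± 1.41, 5.44 ± 1.68 and 4.13 ± 1.39 in CL calves, and 3.89 ± 0.60 (SD, n = 7), 4.69 ± 0.74, 4.92 ± 1.4 and 3.64 ± 0.82 in LF calves. H calf 6 was the highest at 0, 48 and 72 h, with 8.73, 9.62 and 9.94. The mean of the differences was 2, 2.2, 1.73 and 1.4 with all calves and 1.63, 1.78, 1.29 and 1.2 without H calf 6. Without the 5 libraries it was 1.57 at 72 h and 1.79 at 168 h. At 168 h the highest beef library was that labelled CL calf 1, and at 72 h the lowest LF library was that labelled LF calf 5.

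Set 4 held 5 members lower in H calves that were the most tightly bound to one another (median correlation 0.918). In 4 of the 5, 27% to 31.8% of the spread lay between calves, and in ENSBTAG00000002278 67.3%. The mean of the differences was -2.12, -1.39, -1.12 and -1.59. Without the 5 libraries it was -1.22 at 72 h and -1.01 at 168 h. These differences are of log2 means, and at 72 h the median log2 fold change of the set in edgeR, which compares counts, had the opposite sign (0.53, higher in H calves). edgeR called all 5 members lower at 0 h, 1 at 48 h and 0 at the later ages, and DESeq2 called 5, 5, 0 and 4 at the 4 ages. ENSBTAG00000021466, 1 of its members, was at 0.299 to 40.7 CPM over the ages in H calf 2 and at 0.983 to 1818 CPM in CL calf 4, where it was highest at 48 h. The 7 CL values at 48 h were 1.18, 570.3, 3.35, 1818, 0.0911, 0.339 and 0.723 CPM for calves 1 to 7, of which those of 2 calves stand far above the rest. ENSBTAG00000002278, its highest-ranked member, had H medians of 0.632, 0.948, 0.889 and 1.20 CPM at the 4 ages and beef medians of 18.1, 9.01, 6.71 and 10.9 CPM. Its highest H value, 59.1 CPM at 72 h, exceeded every beef value of that age. The D(t) of ENSBTAG00000021466 at 168 h was -1.67 with all libraries and -0.93 without the 5. Single libraries stood high in all 3 groups, with set means of up to 7.42 in H, 10.04 in CL and 7.43 in LF calves on the log2 scale.

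**Figure D4:**
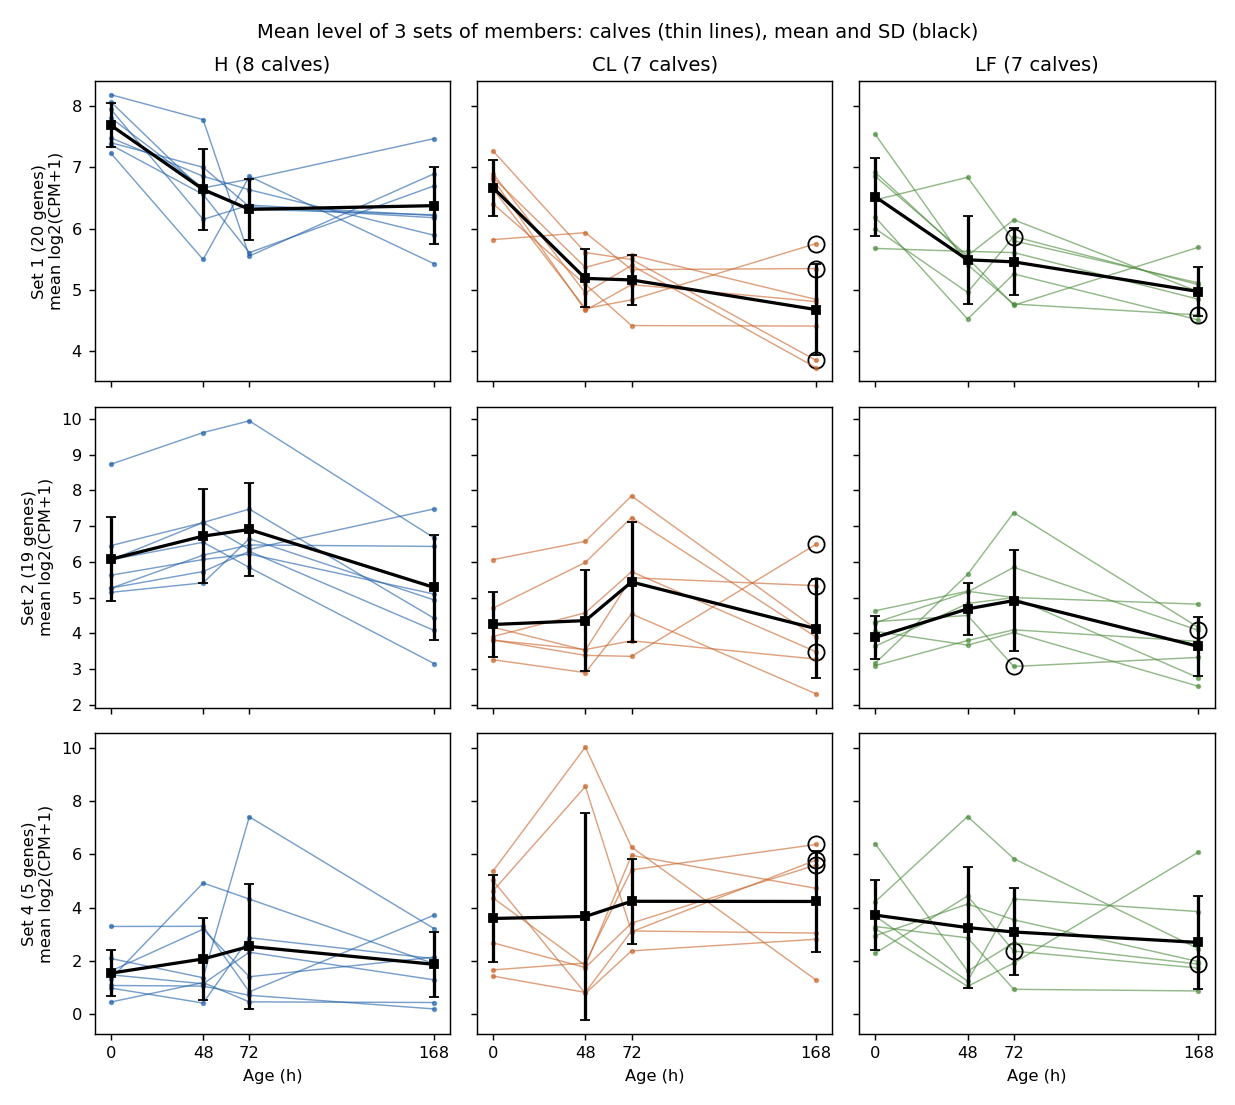
Mean log2(CPM+1) of sets 1, 2 and 4 (rows) against age in hours in H, CL and LF calves (columns), with a thin line for each labelled calf, black squares and bars for the mean and SD of the group, and rings around the 5 libraries that matched another calf. Set 1 starts high in every group, set 2 has its lowest mean at 168 h in H, CL and LF calves, and set 4 shows isolated peaks.

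Sets 3, 5 and 6 were smaller. The mean of set 3 (6 members, 66.8 to 594.9 CPM) in H calves was 7.09 ± 0.41 (SD, n = 8) at birth and 8.15 ± 0.81, 8.42 ± 0.85 and 8.40 ± 0.53 at the later ages. For CL calves it was 5.65 ± 0.50 (SD, n = 7), 6.42 ± 0.59, 7.23 ± 1.04 and 6.84 ± 1.64, and for LF calves 5.72 ± 0.68 (SD, n = 7), 7.88 ± 1.45, 7.42 ± 0.83 and 7.64 ± 0.52. The 5 members of set 5, at 5.58 to 19.3 CPM, had means of 2.33 ± 0.39 (SD, n = 8) in H, 3.85 ± 0.30 (SD, n = 7) in CL and 3.46 ± 0.52 in LF calves at 0 h, and of 2.62 ± 0.41, 3.69 ± 0.43 and 3.66 ± 0.39 at 168 h. In set 6, to which ENSBTAG00000019106 belongs, the H mean was between 7.34 and 7.98 and the means of the beef groups between 5.67 and 6.49 at the 4 ages.

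A model across all genes (edgeR quasi-likelihood test at each age, called at a Benjamini-Hochberg adjusted p below 0.05 and a fold change of at least 1.5) gives the background against which the choice of members can be read. At 0 h it called 62 members higher and 22 lower in H than in beef calves of the 99 tested, beside 12% and 6.03% of all genes tested. The numbers were 62 and 19 of 100 at 48 h (9.51% and 3.40% of genes), 51 and 14 at 72 h (4.53% and 3.17%) and 54 and 18 at 168 h (6.03% and 2.96%). Since the rule used this contrast, these counts are descriptive. Without the 5 libraries 48 members were called higher and 13 lower at 72 h (3.98% and 2.28% of genes), and 58 and 16 at 168 h (8.07% and 3.36%).

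The comparison of CL with LF calves was not used by the rule. No member passed the threshold at any age, nor did any other gene by edgeR (0% of the genes tested, at each of the 4 ages). The smallest adjusted p among the members was 0.0566, at 48 h, in edgeR's quasi-likelihood test. An unadjusted p below 0.05 was found for 13 of 98 members at 0 h (10% of all genes), 23 of 100 at 48 h (22.7%), 11 of 100 at 72 h (4.44%) and 9 of 98 at 168 h (1.9%). Without the 5 libraries such a p was found for 11 of 100 members at 72 h (835 of 12751 genes). At 168 h it was found for 16 of 99 (414 of 12983 genes). No member or other gene passed the threshold in edgeR at these ages without the 5 libraries. With DESeq2, 1 member was higher and 9 were lower in CL than in LF calves at 48 h (0.623% and 3.72% of genes), 5 of the 9 from set 3, and 0 members passed at the other 3 ages. The median log2 fold change of set 3 at 48 h was -2.07 in edgeR, with no member past the threshold. The median difference between CL and LF calves over the members was 0.17, -0.11, 0.05 and 0.02 on the log2 scale, and at 168 h it was -0.36 without the 5 libraries. These values do not show that the 2 beef groups were alike.

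Changes with age within a breed group were likewise not used by the rule. From 0 to 48 h in H calves, 4 members rose and 13 fell of 99 tested (edgeR), beside 3.97% and 2.97% of all genes. In CL calves 4 rose and 24 fell of 99 (7.03% and 7.86% of genes), and in LF calves 16 rose and 10 fell of 98 (7.37% and 4.52%). Of the 20 members of set 1, 9 fell in H, 17 in CL and 5 in LF calves, and none rose. With the calf as a block, which compares each calf with itself, the counts of members that rose and fell became 17 and 20 for the H (5.93% and 5.24% of genes), 11 and 26 for the CL (7.91% and 8.68%) and 15 and 16 for the LF group (8.31% and 6.17%), and set 1 had 15, 17 and 8 members lower. Of set 2 in H calves, edgeR called no member without the block and 9 of 19 higher with it, and DESeq2 called 1 higher without it.

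Within set 1, ENSBTAG00000039046 fell from 103.6 ± 21.3 CPM (SD, n = 8) to 51 ± 29.8 CPM in H calves, a log2 fold change of -1.08 ± 0.30 (SE; edgeR adjusted p = 0.0303, and 0.0831 without the 9 samples whose label has a final R). In CL calves it fell from 50.9 ± 26.5 to 16.5 ± 7.37 CPM (SD, n = 7; log2 fold change -1.68 ± 0.36, edgeR adjusted p = 0.00257). The LF values, 39.1 ± 16.7 and 21.7 ± 26.7 CPM, gave a change of -0.74 ± 0.58 that missed the threshold (edgeR adjusted p = 0.407) and passed it with the calf as a block (-1.31, adjusted p = 0.0474). ENSBTAG00000039037 had medians of 125.8, 44.3 and 32.5 CPM in H, CL and LF calves at 0 h and of 15.9, 2.19 and 1.16 CPM at 48 h. It fell in CL calves (log2 fold change -4.68 ± 0.78, edgeR adjusted p = 0.000627) and in LF calves (-4.57 ± 1.3, adjusted p = 0.0246, and 0.0527 without the filter on low counts). DESeq2 gave the LF change as -2.27. Its change in H calves was -0.94 ± 0.98 (edgeR adjusted p = 0.605) and, with the calf as a block, -2.45 ± 0.89 (adjusted p = 0.0842), and whether the groups differ in this change was not tested.

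From 72 to 168 h, 2 members rose and 5 fell of 99 in H calves (edgeR), beside 3.36% and 5.81% of all genes. Age, diet and housing changed together in H calves between these ages, and their separate effects were not tested. No member was called in CL calves, where 0% of the genes rose and 0.0157% fell. 20 of 100 members had an unadjusted p below 0.05 there (23.8% of all genes), and DESeq2 called 0 members higher and 7 lower (1.02% and 4.01% of genes). In LF calves 6 members rose and 21 fell of 99 (3.34% and 10.6% of genes), and 11 rose and 18 fell without the 2 libraries labelled LF calf 5 at 72 h and LF calf 6 at 168 h (4.54% and 11% of genes). In CL calves the count depended on the 3 libraries labelled CL calves 1, 2 and 3 at 168 h, since 7 members fell and none rose without them (3.39% and 0.685% of genes). In the blocked fits the members that rose and fell numbered 4 and 15 for the H (3.44% and 5.55% of genes), 2 and 8 for the CL (1.27% and 4.46%) and 9 and 22 for the LF group (4.22% and 9.5%). With the block and without the 5 libraries they were 1 and 8 for the CL (0.528% and 2.95% of genes) and 1 and 3 for the LF group (0.76% and 1.68%), from 4 and 5 complete calves.

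**Figure D5:**
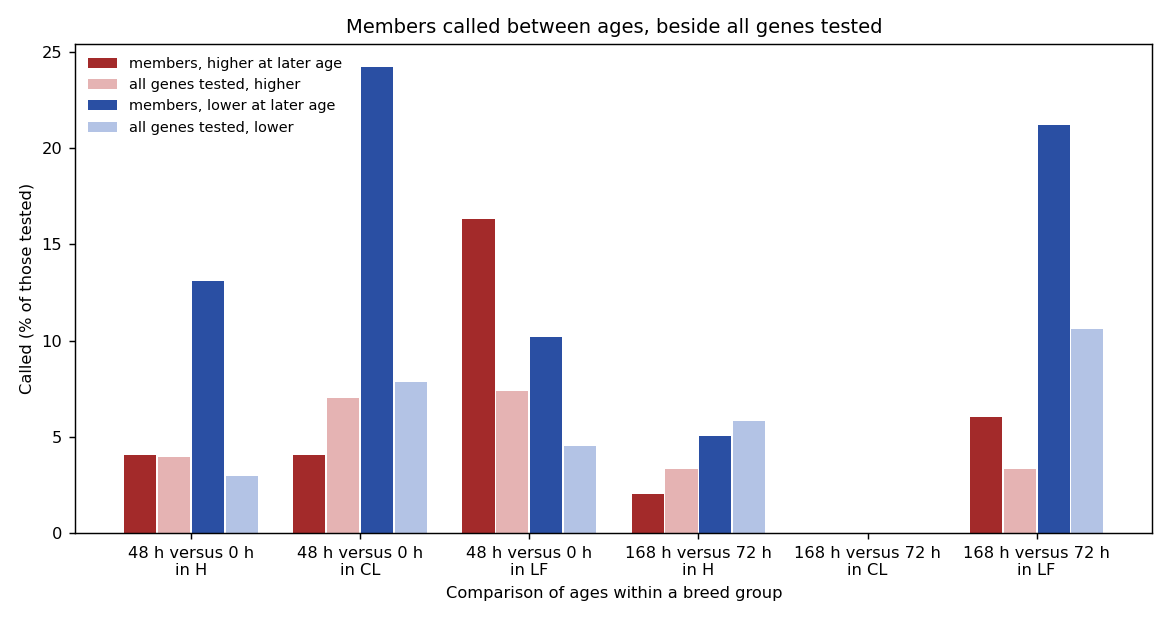
Bars give the percentage of members (dark) and of all genes tested (pale) called higher (red) or lower (blue) at the later age by edgeR, without the calf as a block, for the 6 comparisons of ages within a breed group. The tallest bars are members lower at 48 h in CL calves (24.2%) and members lower at 168 h in LF calves (21.2%), against 7.86% and 10.6% of genes, and the bars of the CL calves from 72 to 168 h are at or too near 0 to be seen.

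Of set 2, edgeR called 4 of 19 members lower at 168 than at 72 h in H calves, 10 in LF calves and none in CL calves, where DESeq2 called 2 lower. None rose. With the calf as a block 9 fell in H calves, 8 in LF calves and none in CL calves. The median log2 fold change of the set was -2.36 in H, -1.79 in CL and -2.05 in LF calves, against medians of all genes of -0.04, 0.01 and 0.04. It was -3.49 in CL calves without the 5 libraries and -1.19 in H calves with DESeq2. ENSBTAG00000013178 fell in H calves by 2.93 ± 0.87 on the log2 scale (SE; edgeR adjusted p = 0.0311, which became 0.0566 without the filter on low counts and 0.0533 without the 9 samples with a final R). Its change in CL calves was -2.1 ± 1.23 (edgeR adjusted p = 0.296), -3.37 with the calf as a block (adjusted p = 0.207) and -4.72 without the 5 libraries (adjusted p = 0.0749). In LF calves it was -2.86 ± 1.06 (edgeR adjusted p = 0.0581), which DESeq2 called (adjusted p = 0.0159). ENSBTAG00000037644 changed by -3.64 ± 1.24 in H calves (edgeR adjusted p = 0.0556), -2.71 ± 1.44 in CL calves (adjusted p = 0.255) and -4.17 ± 1.53 in LF calves (adjusted p = 0.0553). None of these passed the threshold in edgeR. DESeq2 called the change in H calves (-2.4, adjusted p = 0.0021) and in LF calves (adjusted p = 0.00923). In edgeR with the calf as a block the change in H calves did (-4.59, adjusted p = 0.0306), and without the 5 libraries that in LF calves did (-4.94, adjusted p = 0.0355) while the change in CL calves was -6.03 (adjusted p = 0.0661) and, with the block and all libraries, -4.56 (adjusted p = 0.153). Whether the groups differ in these changes was not tested.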

How the data were processed

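Whole-blood RNA of 22 calves at 0, 48, 72 and 168 h was sequenced as 88 single-end mRNA libraries. The authors trimmed reads with cutadapt, used STAR for alignment (cattle assembly UMD3.1, Ensembl genes) and deposited its raw counts per gene. The unstranded count was used, and rows that name no gene were left out: unmapped (median 1.46% of reads), multimapping (9.99%), and on no gene or ambiguous (23%). Multimapping reads were not counted, so genes with close copies are uncertain. CPM was computed without each library's 5 largest genes.

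The members and lists were chosen with earlier results of these data known. Lists by symbol (cell type markers, pathways) fixed at the start could not be applied, because 0 identifiers matched a symbol. The rule for named genes (leading members of each side, members near the threshold, on/off members) was cut to 2 identifiers on a side per set. Sequences are not printed for the same reason.

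Tests used edgeR 4.0.16 in R 4.3.3 (TMM, filterByExpr, robust glmQLFit, glmQLFTest), fitted to the groups compared at one age or to 2 ages of a group, with standard errors from the log2 fold change and F. They were tested on simulated data. Libraries of 1 calf come from 1 animal, so calf was the pairing in the blocked fits. The correlation of a calf's deviations between 2 ages ran from -0.142 (CL calf 2, 168 versus 72 h) to 0.76, with negative values in CL calves 2 and 3 only. Alternatives were RLE, DESeq2 1.42.0, no filter, no fold threshold, other pseudocounts and levels, the counts of each strand, the L number of the library, omission of each calf, and omission of 9 samples with an R at the end of the label. The omission of the 5 libraries and of H calf 6 was added after seeing the data.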

Additional observations from a re-analysis of the deposited data

Results flagged for a closer look

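A gap test was applied to 11 of the members described and to the means of sets 1, 2 and 4, on the log2 scale, in each group of 7 or 8 calves. A library was singled out when its distance to the nearest other value exceeded the 95% critical share of its group's range (Dixon). Of 164 groups, 19 held such a library. The rate of about 1 in 20 that holds for independent, unselected groups is no yardstick here. On/off members were named for their spread between calves, and the same calves recur over ages and within set 2.

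H calf 6 stood above the H group for set 2, with a gap of 0.635 of the range at 0 h, 0.598 at 48 h and 0.602 at 72 h. It did so at 72 h for ENSBTAG00000037644 (0.572) and ENSBTAG00000013178 (0.603).

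For ENSBTAG00000021565 CL calf 6 stood above the CL calves at 0 h (0.82), 48 h (0.804), 72 h (0.869) and 168 h (0.906), and the library labelled LF calf 6 at 168 h, 1 of the 5 libraries that matched another calf, stood above the LF calves (0.805).

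For ENSBTAG00000001308 H calf 3 stood above the H calves at 0 h (0.757), 48 h (0.541) and 168 h (0.576), and the libraries labelled CL calf 1 stood below the CL calves at 0 h (0.611) and at 168 h (0.611). ENSBTAG00000047008 was higher in CL calf 1 at 48 h than in the other CL calves (0.72).

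In set 4, ENSBTAG00000002278 was low in LF calf 2 at 0 h (0.712) and high in LF calf 4 at 48 h (0.588), and ENSBTAG00000021466 was high in H calf 3 at 0 h (0.577).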

How the results depend on the processing

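Of 266 recomputed values, 238 kept their direction and their side of the threshold, or stayed within 1.5 times of the reported count. Of the 64 values of D(t) and the 78 age changes of named members, 0 reversed. The other values are counts or shares, which have no sign to reverse. The opposite sign of set 4 in edgeR at 72 h is outside this tally. For 11 named members, all 64 recomputed values of D(t), each at the age of the member's smallest difference, moved by less than the spread between calves. ENSBTAG00000034973 has no recomputed value with TMM library sizes or with the counts of 1 of the strands. Its mean level, 5.29 CPM, was close to the required 5 CPM, which 95 and 99 members reached in these settings. Some of these moves were still over 1.5 times, all with a pseudocount of 5: ENSBTAG00000034973 from -2.23 to -1.11, ENSBTAG00000002278 from -1.3 to -0.619, ENSBTAG00000021466 from -1.23 to -0.665, ENSBTAG00000047008 from -1.08 to -0.614, ENSBTAG00000021565 from 1.15 to 0.71 and ENSBTAG00000001308 from 1.33 to 0.838. The list of members shared 79 to 94 genes with the list when 1 calf was left out, 61 when a mean of at least 20 CPM was asked for (which 61 members reach), 63 with medians in place of means and 64 with H against LF calves alone. For the members without overlap of H and beef at all 4 ages, the count went from 0 to 1 without the 5 libraries. Leaving out libraries can only lessen overlap, for any gene, and the share of all genes at that setting is not given here. Counts of members called are given with the percentages of all genes called higher and lower at the same setting in brackets. That of CL versus LF at 48 h went from 0 to 10 with DESeq2 (0.623% and 3.72%). For 48 versus 0 h in H calves it went from 17 to 11 without the samples whose label ends in R (2.7% and 1.83%). It went to 37 with the calf as replicate block (5.93% and 5.24%). For 168 versus 72 h in H calves it went from 7 to 13 with DESeq2 (3.92% and 7.04%) and 3 without the filter on low counts (2.58% and 3.01%). It was 4 without the samples ending in R (3.21% and 4.71%) and 19 with the calf as replicate block (3.44% and 5.55%). For the same ages in CL calves it went from 0 to 7 with DESeq2 (1.02% and 4.01%) and 10 with the block (1.27% and 4.46%). It was 7 without the 5 libraries (0.685% and 3.39%) and 9 with the block and without them (0.528% and 2.95%). In LF calves it went from 27 to 16 without the samples ending in R (2.77% and 8.93%), and to 4 with the block and without the 5 libraries (0.76% and 1.68%). The pairing changed no other total of members called by more than 1.5 times. Within these totals, from 0 to 48 h, members that rose in CL calves went from 4 to 11. Those that fell in LF calves went from 10 to 16. The cause was not tested, except that leaving out libraries leaves fewer samples. At these depths, levels below 0.367 CPM cannot be told from absence in the shallowest library.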
